A study of Mus musculus with 25 samples.

Results

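DNA methylation of pancreatic islets from mice raised in small litters was compared between postnatal day 21 (P21) and day 180 (P180). The comparison used the 5 small-litter islet libraries of each age, 10 of the 25 libraries of the study, and every interval on chromosomes 1 to 19, which were 22300 of the 22749 intervals in the table. Of these, 22053 held enough reads to be tested and 247 did not. All mice were of strain FVB. The small-litter mice (SL) had been suckled in litters of 4 pups from P1 to P21, a model of overnutrition in early life, and control mice (C) in litters of 9 pups. The context came from 3 control groups of 5 mice each: islets at P21, islets at P180, and whole pancreas at P21, which the submitters put at about 98% exocrine. These share no library with the small-litter groups. How the mice were fed after P21, their sex and their litters of origin are not given in the labels, so some mice may be litter mates, and each p-value measures only the spread between these samples.

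The islets of Langerhans are clusters of hormone-secreting cells, mostly insulin-producing beta cells, set within the exocrine pancreas, whose acinar cells make digestive enzymes. In mouse islets the weeks around weaning are a period of beta cell growth and maturation, and DNA methylation at CpG dinucleotides is one of the marks that differ between cell types and change with age. The assay, methylation-specific amplification with sequencing (MSA-seq), reads methylation at CCCGGG sites: SmaI first removes unmethylated sites, XmaI then opens methylated ones with ends that accept an adaptor, and pieces with an adaptor on both ends are amplified. The read count of an interval between neighbouring sites is therefore a relative measure of methylation at the pair of sites that bound it, with no absolute percentage. The intervals carry positions in mouse build mm9 and no gene names, so the islet label could not be checked against marker genes, and no interval was placed in a gene. Islets had been hand-picked in 3 rounds. In DNA from whole islets, a change in the mix of cell types and a change of methylation within a cell type cannot be told apart.

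Totals ran from 3140503 to 10591677 counts per library at P21 and from 3593928 to 7080177 at P180. Levels are given as normalised read counts (CPM, scaled to library size with trimmed means), with SD over 5 mice. Replicates differed by more than counting error (chi-square per degree of freedom 4.88 to 32.3), so each library was counted as 1 sample, and the correlation of log2 counts between replicates was 0.768 to 0.959. A pair of libraries stood apart: P21 replicate 1 had 424 autosomal intervals at 0 counts (1.90%) and P180 replicate 2 had 196 (0.879%), against at most 18 in each of the other 8. The intervals at 0 in these libraries had medians of 7.60 and 7.63 CPM in the other 9. Both were left out together only in the edgeR and DESeq2 fits of the age change in small-litter islets. The comparisons with control islets and exocrine tissue, and the interaction of age and litter size, were not repeated without both.

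No interval was called between P21 and P180 in small-litter islets. With edgeR's quasi-likelihood test and Benjamini-Hochberg adjustment at 0.05, 0 of 22053 intervals were higher at P180 (0%) and 0 were lower (0%), and the lowest adjusted p was 0.750. At an unadjusted p under 0.05, 499 intervals were higher (2.26%) and 581 lower (2.63%), 1080 in all (4.9%). That share is close to the threshold of 0.05 itself. The ages did not overlap at 145 intervals that were higher at P180 (0.658%) and 95 that were lower (0.431%), and with total-count scaling these were 86 and 93. At a single interval, full separation in either direction has an exact permutation p of 0.00794 (252 assignments). Some of the 22053 intervals would therefore separate without any age effect, and separation alone is no evidence of a change. Without P21 replicate 1 and P180 replicate 2, the calls were again 0 and 0, and 421 and 427 intervals had an unadjusted p under 0.05. Without P21 replicate 5, the library with the highest total, the unadjusted counts were 876 higher and 1147 lower, and without P21 replicate 2 they were 341 and 341. The split between directions depended on the scaling, with 46.2% of the unadjusted counts on the higher side as scaled here, 29.9% with total counts (307 higher, 721 lower) and 29.3% with upper-quartile scaling (325 higher, 784 lower).

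The median log2 fold change, P180 over P21, was -0.00, with quartiles of -0.20 and 0.16 and a range from -2.19 to 1.61, and 10946 intervals lay above 0 against 11107 below it. The scaling centres these values near 0, and the median was -0.06 with total-count and with upper-quartile scaling. The standard error (SE) of a log2 fold change had a median of 0.25 and ran from 0.11 to 1.22. At 15854 intervals (71.9%) the 95% confidence interval lay within a 2-fold change in either direction, and at 6940 (31.5%) within 1.5-fold. Only 35 intervals were over 2-fold higher at P180 and 107 over 2-fold lower. Median lengths were 164 bp for those over 2-fold lower and 885 bp for those over 2-fold higher, and both sets held few reads, with medians of 5.08 and 6.04 CPM against 17.7 CPM over all tested intervals. The ages did not overlap at 10 of the 35 and 12 of the 107. The 499 higher intervals with an unadjusted p under 0.05 had a median level of 36.2 CPM and a median length of 1076 bp, and the 581 lower ones 9.29 CPM and 788 bp.

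**Figure D1:**
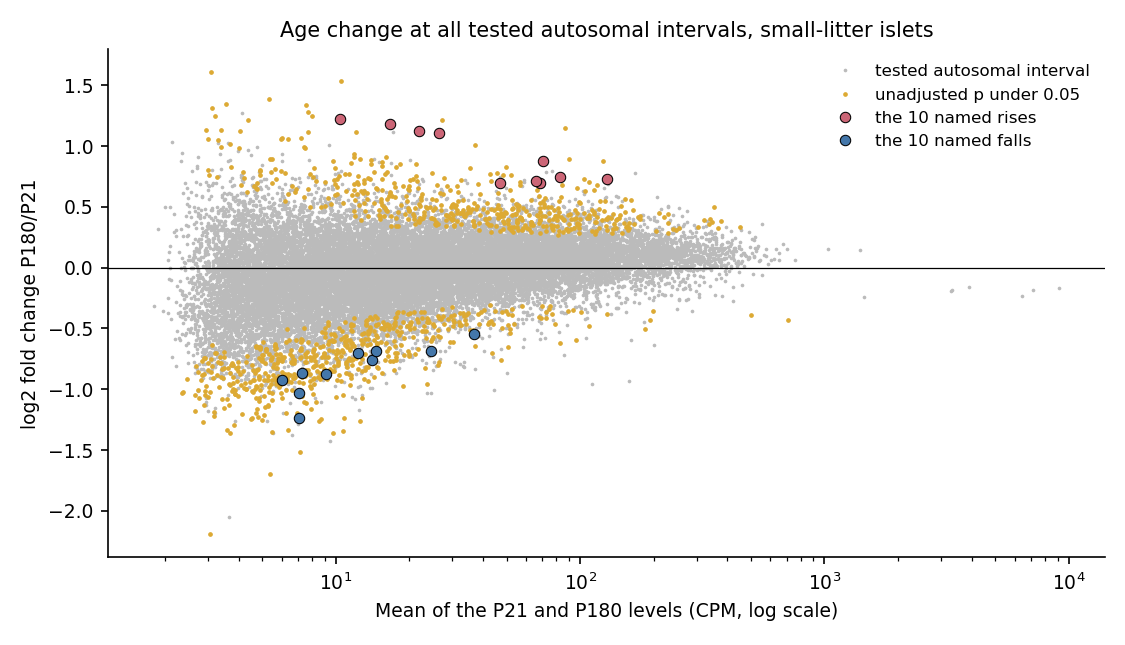
Log2 fold change (P180 over P21, vertical axis) against the mean level in CPM (horizontal axis, log scale) for each of the 22053 tested autosomal intervals. Grey points are all intervals, yellow points those with an unadjusted p under 0.05, and large red and blue points the 10 higher and 10 lower intervals named in the text. The spread narrows as the level rises, and the yellow points on the lower side sit at lower levels than those on the higher side.

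DESeq2, the second count model, called 12 of the 22053 intervals higher at P180 (0.0544%) and 0 lower (0%), with adjusted p from 0.0108 to 0.0453. It gave 1032 intervals an unadjusted p under 0.05 and gave 5050 no adjusted p. The other tool, limma voom with library weights, called 0, with 1771 at an unadjusted p under 0.05. The DESeq2 calls depended on which mice were included. With each library left out in turn DESeq2 called between 0 and 15 intervals higher: 0 without P21 replicate 2, P21 replicate 4, P180 replicate 2 or P180 replicate 4, 1 without P180 replicate 5, 2 without P180 replicate 3, 3 without P21 replicate 5, 8 without P21 replicate 3, and 15 without P21 replicate 1 or P180 replicate 1. Each of the 12 was called in 1 to 4 of these 10 runs. Without both P21 replicate 1 and P180 replicate 2, DESeq2 called 6 intervals, not all of them among the 12. Those of the 12 still called were chr17:87730749-87731659, chr8:111345623-111346858, chr11:117177768-117178721 and chr5:113721608-113722136. The interval with the lowest DESeq2 p, chr16:38659287-38660376, was not called in that run. Of the 12, 10 are the higher intervals described next, which edgeR ranked first by p among those whose ages did not overlap. The other 2 were chr11:94247192-94247996, described with the largest changes, and chr19:6273341-6273987 (646 bp). The latter had 97.0, 67.5, 77.5, 77.8 and 73.8 CPM at P21 and 137, 139, 127, 151 and 94.5 CPM at P180. P180 replicate 5 lay below P21 replicate 1, so the ages overlapped, and the log2 fold change was 0.73 ± 0.15 (adjusted p = 0.750, edgeR; 0.0325, DESeq2).

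The 10 higher intervals are numbered Rise 1 to Rise 10 in the order of their edgeR p. They came from the 109 intervals (0.494%) that were higher with an unadjusted p under 0.05 and no overlap of the ages. The names state a direction, not a call, and edgeR adjusted p was 0.750 to 0.882. All 10 were between 528 and 1235 bp long, and their log2 fold changes ran from 0.70 to 1.22.

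Rise 1, chr16:38659287-38660376 (1089 bp), had 8.26, 8.43, 14.1, 10.6 and 9.39 CPM in the P21 mice and 18.9, 24.0, 19.6, 23.0 and 30.8 CPM at P180. The lowest P180 mouse lay above the highest P21 mouse, and no mouse stood far from its group. Its log2 fold change was 1.18 ± 0.21 (SE, n = 5 each; 95% confidence interval 0.72 to 1.64; unadjusted p = 0.000108, adjusted p = 0.750, edgeR). In DESeq2 it had an adjusted p of 0.0108.

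Rise 2, chr17:87730749-87731659 (910 bp), had 65.5, 50.2, 52.4, 43.7 and 51.2 CPM at P21 and 79.5, 78.8, 88.0, 83.9 and 92.4 CPM at P180. P21 replicate 1 was the highest of its group and still below every P180 mouse. That gave a log2 fold change of 0.70 ± 0.13 (adjusted p = 0.750, edgeR).

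Rise 3, chr4:149311662-149312329 (667 bp), had 46.5, 51.3, 52.0, 53.4 and 48.2 CPM at P21 and 68.4, 80.7, 77.5, 101 and 82.4 CPM at P180. The P21 mice were tightly grouped, with an SD of 2.84 around a mean of 50.3, and the P180 mice were wider, 82.0 ± 12. On the log2 scale the change was 0.71 ± 0.14 (adjusted p = 0.750, edgeR).

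Rise 4, chr2:166455562-166456511 (949 bp), had 52.3, 36.4, 44.6, 54.3 and 61.9 CPM at P21 and 83.2, 97.4, 111, 72.4 and 92.0 CPM at P180. The groups were separated by P21 replicate 5 and P180 replicate 4. The log2 fold change was 0.87 ± 0.17 (adjusted p = 0.750, edgeR).

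Rise 5, chr11:117177768-117178721 (953 bp), was the most abundant of the 10, with 129, 79.9, 84.2, 89.6 and 103 CPM at P21 and 155, 169, 178, 136 and 160 CPM at P180. P21 replicate 1 came close to P180 replicate 4, and the others were well apart. Its log2 fold change was 0.73 ± 0.14 (adjusted p = 0.750, edgeR).

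Rise 6, chr16:30019110-30020330 (1220 bp), had 17.7, 11.5, 24.6, 15.5 and 14.0 CPM at P21 and 25.2, 36.8, 33.4, 41.0 and 44.0 CPM at P180. The groups nearly met, at P21 replicate 3 and P180 replicate 1. That gave a log2 fold change of 1.11 ± 0.22 (adjusted p = 0.750, edgeR).

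Rise 7, chr5:113721608-113722136 (528 bp), the shortest of the 10, had 76.2, 64.4, 56.5, 66.3 and 48.9 CPM at P21 and 104, 97.6, 83.0, 120 and 114 CPM at P180. P180 replicate 3 was the lowest of its group. On the log2 scale the change was 0.74 ± 0.15 (adjusted p = 0.750, edgeR).

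Rise 8, chr2:158596878-158597778 (900 bp), had 35.8, 33.1, 43.3, 33.6 and 34.3 CPM at P21 and 52.7, 63.3, 51.3, 69.4 and 54.8 CPM at P180. P21 replicate 3 lay above the other P21 mice and below all P180 mice. The log2 fold change was 0.70 ± 0.14 (adjusted p = 0.750, edgeR).

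Rise 9, chr8:111345623-111346858 (1235 bp), rested on the fewest reads, 181 at P21 and 370 at P180 over 5 mice each. It had 9.79, 5.55, 7.16, 4.60 and 4.43 CPM at P21 and 11.9, 13.6, 14.9, 19.2 and 12.5 CPM at P180. Its log2 fold change was 1.22 ± 0.25 (adjusted p = 0.750, edgeR), the largest of the 10.

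Rise 10, chr4:154547184-154548292 (1108 bp), had 10.4, 13.5, 16.4, 12.9 and 15.4 CPM at P21 and 16.4, 31.1, 30.6, 43.1 and 29.2 CPM at P180. P21 replicate 3 and P180 replicate 1 were level to 3 digits, so the separation of the ages was nominal. On the log2 scale the change was 1.12 ± 0.24 (adjusted p = 0.882, edgeR).

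The 10 lower intervals, Fall 1 to Fall 10, had weaker evidence, with unadjusted p from 0.00121 to 0.00273 and an adjusted p of 0.984 for each (edgeR). They came from the 85 intervals (0.385%) that were lower with an unadjusted p under 0.05 and no overlap, and no tool called them. Their lengths ran from 239 to 2911 bp with a median of 1782 bp, against 951 bp for the higher intervals, and 8 of the 10 had fewer than 20 CPM at P21. Their log2 fold changes ran from -1.23 to -0.55.

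Fall 1, chr14:108089024-108089263, is a short interval of 239 bp with 24.2, 15.8, 15.4, 18.7 and 14.7 CPM at P21 and 11.3, 9.82, 9.34, 10.1 and 11.2 CPM at P180. The P180 mice were within 2 CPM of each other, and P21 replicate 1 was the highest of its group. On the log2 scale the change was -0.76 ± 0.18.

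Fall 2, chr7:29193084-29193377 (293 bp), had 15.0, 12.7, 9.76, 12.1 and 9.70 CPM at P21 and 6.97, 7.36, 4.59, 5.76 and 7.30 CPM at P180. The log2 fold change was -0.88 ± 0.22, and the groups were separate by over 2 CPM.

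Fall 3, chr17:87651477-87653238 (1761 bp), had 9.18, 7.32, 7.92, 9.19 and 6.12 CPM at P21 and 3.48, 5.45, 4.29, 3.84 and 3.65 CPM at P180, a log2 fold change of -0.93 ± 0.24. Both groups were low, and the P180 mean of 4.14 CPM rested on 103 reads.

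Fall 5, chr8:122984592-122987369 (2777 bp), had 17.7, 22.4, 18.7, 17.5 and 13.5 CPM at P21 and 10.9, 11.5, 10.7, 12 and 10.5 CPM at P180. The P180 mice were close together (11.1 ± 0.627) and the P21 mice ranged more widely. Its log2 fold change was -0.69 ± 0.18, and in control islets the same interval went the other way, with 13.0 ± 4.70 CPM at P21 and 15.2 ± 2.88 at P180.

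Fall 9, chr4:136494427-136496229 (1802 bp), had the largest log2 fold change of the 10, -1.23 ± 0.33. Its P21 mice ranged from 5.81 to 13.3 CPM and its P180 mice from 2.30 to 5.70 CPM. P21 replicate 1, at 5.81, was almost level with P180 replicate 5, at 5.70. Fall 4, chr5:120993639-120996550 (2911 bp), came as close, with a lowest P21 value of 6.01 CPM and a highest P180 value of 5.93 CPM.

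Fall 10, chr11:79050112-79051820 (1708 bp), was the most abundant, with 51.4, 41.1, 43.1, 48.0 and 35.8 CPM at P21 and 27.5, 35.7, 32.5, 26.9 and 26.7 CPM at P180. P21 replicate 5 and P180 replicate 2 differed by under 1 CPM. Its log2 fold change was -0.55 ± 0.15. The remaining 3 were chr15:74580760-74583134 (15.3 ± 2.36 to 9.32 ± 0.669 CPM), chr15:100525232-100526953 (30.2 ± 6.46 to 18.8 ± 2.15 CPM) and chr11:69606626-69609265 (9.36 ± 1.81 to 5.13 ± 0.576 CPM).

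**Figure D2:**
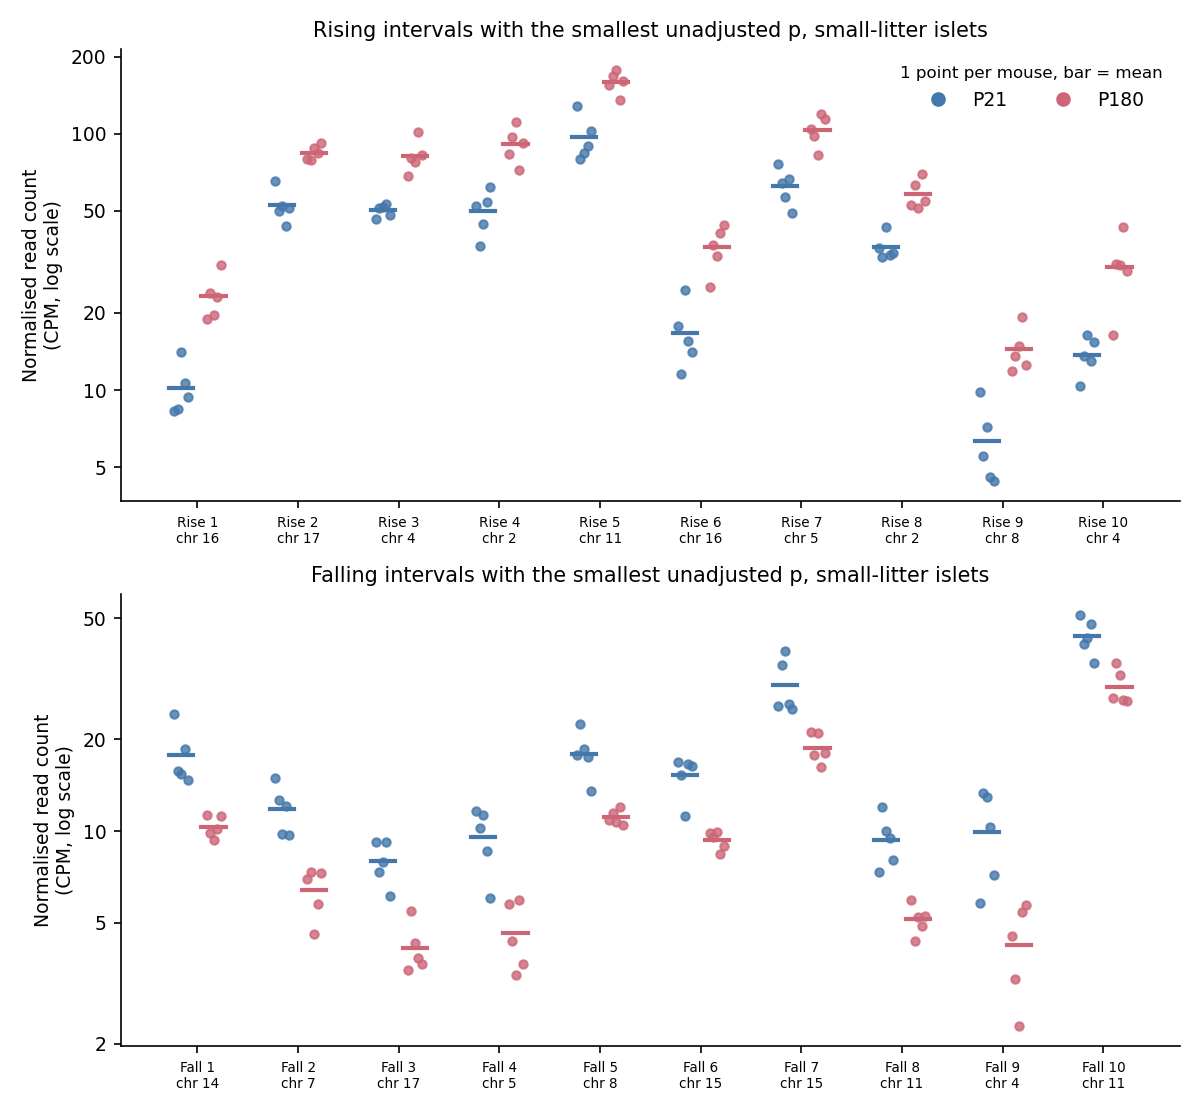
Normalised read count (CPM, log scale) of the 10 higher (upper panel) and 10 lower (lower panel) intervals in each small-litter mouse, with blue points for P21, red points for P180 and a bar at each group's mean. The ages do not overlap at any of the 20 because that was a condition for naming them, and at Rise 10, Fall 4, Fall 9 and Fall 10 they almost touch.

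Among intervals with a mean of at least 50 counts, an unadjusted p under 0.05 and no overlap of the ages, the largest increase was at chr11:94247192-94247996 (804 bp). It had 7.34, 1.78, 8.03, 5.74 and 4.11 CPM at P21 and 8.81, 15.5, 17.3, 14.8 and 21.4 CPM at P180, so that P180 replicate 1 lay just above the highest P21 mouse. The log2 fold change was 1.53 ± 0.35 (adjusted p = 0.984, edgeR; 0.0453, DESeq2). At chr2:118519375-118519954 (579 bp) the P21 mice ran from 8.33 to 21.4 CPM and the P180 mice from 23.2 to 53.2 CPM, a log2 fold change of 1.22 ± 0.29. The other 3 of the 5 largest were Rise 9, Rise 1 and Rise 10. Fall 9 (-1.23) and Fall 4 (-1.03) held too few reads for this rule. The largest decreases that met it were smaller, from -0.85 to -0.72. The first of them, chr5:83295872-83296111 (239 bp), had 40.1 CPM in P21 replicate 1 against 15.1 to 20.7 in the other P21 mice and 8.03 to 14.2 at P180, and its log2 fold change of -0.85 ± 0.27 became -0.57 without that mouse.

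The 5 most abundant intervals in each direction were named among those with an unadjusted p under 0.05 and no overlap of the ages, so their separation follows from the choice. At chr4:114534650-114535563 (913 bp), the P21 mice had 288, 276, 308, 300 and 305 CPM and the P180 mice 351, 441, 314, 379 and 407 CPM. The log2 fold change was 0.36 ± 0.12 (adjusted p = 0.984, edgeR), with P180 replicate 3 close to the P21 mice. At chr6:144851205-144851982 (777 bp) the level was 149 ± 21.8 CPM at P21 and 197 ± 6.45 CPM at P180, at chr6:140307835-140308657 (822 bp) 111 ± 9.90 and 146 ± 19.9, and at chr16:91554558-91555450 (892 bp) 110 ± 13.6 and 145 ± 6.30. The most abundant decrease of this kind, chr6:30488818-30489983 (1165 bp), had 112, 113, 93.6, 94.2 and 110 CPM at P21 and 88.5, 83.4, 81.6, 87.2 and 68.9 CPM at P180, a log2 fold change of -0.34 ± 0.12. The next 2 were chr15:76543401-76544968 (83.5 ± 9.85 to 65.7 ± 5.79 CPM) and chr7:148645636-148646447 (58.8 ± 8.79 to 42.1 ± 6.99 CPM).

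The 5 intervals with the smallest standard errors show how level a well-measured interval could be. At chr6:108362391-108363486 (1095 bp), the P21 mice had 130, 141, 135, 142 and 143 CPM and the P180 mice 133, 137, 136, 138 and 137 CPM. The ages overlapped fully, and the log2 fold change was -0.02 ± 0.11 (95% confidence interval -0.25 to 0.22). The other 4, chr19:55982996-55983955, chr14:37925284-37926354, chr14:75932261-75933138 and chr6:124998917-124999694, had log2 fold changes from 0.03 to 0.15, all with intervals that held 0.

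The same ages were compared in control islets, which share no library with the small-litter groups. Of the 499 intervals higher at P180 in small-litter islets at an unadjusted p under 0.05, 495 were tested in control islets, and 457 of them (92.3%) were higher at P180 there too. Over all 21900 intervals tested in both, 65.3% had the same direction. Of the 581 lower intervals, 577 were tested in control islets and 515 (89.3%) were lower there. The control log2 fold changes were smaller in size than those used to choose the intervals, with medians of 0.31 against 0.48 for the higher intervals and -0.36 against -0.73 for the lower ones. Control islets had an unadjusted p under 0.05 in the same direction at 136 of the 495 higher intervals (27.5%, or 28.2% of the 482 such control intervals tested here) and at 83 of the 577 lower ones (14.4%, or 19.3% of 429), against 2.2% and 1.95% of all control intervals, and in the opposite direction at 0 of either. The control comparison by itself called 0 intervals (adjusted p under 0.05, edgeR), with 484 higher and 429 lower at an unadjusted p under 0.05. Across intervals the log2 fold changes of the 2 litter groups had a Pearson correlation of 0.40, and intervals are not independent replicates. Both litter groups also had a trend of the age change on interval length. After each library's trend on length was removed, 483 of 539 higher intervals (89.6%) and 481 of 558 lower ones (86.2%) had the same direction in control islets, against 64.7% and 61.8% of all intervals on each side.

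All 10 of the named higher intervals were higher at P180 in control islets, each with an unadjusted p under 0.05, at log2 fold changes from 0.43 to 1.47. Of all control intervals, 2.2% were higher at that p. Of all intervals higher in small-litter islets, 65.2% were higher in control islets. Rise 9 had 5.06 ± 1.15 CPM at P21 and 13.6 ± 7.89 at P180 in control islets, and Rise 2 had 44.5 ± 6.94 and 78.6 ± 23.4. Of the 10 lower intervals, 9 were lower in control islets, 2 of them with an unadjusted p under 0.05. These were chr15:100525232-100526953, at a control log2 fold change of -1.06 ± 0.26, and Fall 10, at -0.59 ± 0.22. Of all intervals lower in small-litter islets, 65.4% were lower in control islets, and 1.95% of all control intervals were lower at that p. Whether the higher and lower sets differ in how they changed in control islets was not tested.

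The reverse choice was made from control islets alone, by the smallest p among intervals whose control ages did not overlap (122 higher, 0.555%, and 131 lower, 0.596%), and read in small-litter islets. Of the 10 chosen as higher, 9 were tested, and all 9 were higher at P180 in small-litter islets with an unadjusted p under 0.05, at a median log2 fold change of 0.64 against 1.00 in control islets. Of all tested intervals, 2.26% were higher at that p, and the small-litter ages did not overlap at 2 of the 9. With each library's length trend removed, all 9 were still higher, and 7 had an unadjusted p under 0.05. With a library left out, the unadjusted p (edgeR) reached 0.136 at chr17:30108071-30108869, 0.111 at chr11:76288709-76290147 and 0.0811 at chr1:189431030-189431318. At chr7:114692369-114693781 (1412 bp), the small-litter mice had 11.3, 14.9, 19.3, 16.1 and 13.8 CPM at P21 and 21.5, 27.8, 26.8, 20.1 and 40.6 CPM at P180, with no overlap and a log2 fold change of 0.85 ± 0.23. At chr17:30108071-30108869 (798 bp) the small-litter ages overlapped, with 59.3 ± 8.53 and 77.8 ± 15.7 CPM (0.40 ± 0.17), where control islets had 48.9 ± 15.6 and 97.7 ± 11.8. The remaining one, chr14:115175847-115178263, had 0 to 21 counts in the small-litter libraries and was not tested. Of the 10 chosen as lower, 9 were lower in small-litter islets, 4 with an unadjusted p under 0.05, at a median of -0.35 against -0.94 in control islets. Of all tested intervals, 2.63% were lower at that p, and the small-litter ages did not overlap at 1 of the 10. With the length trend removed, 9 of these 10 were lower, and 5 had an unadjusted p under 0.05. Values chosen for their size in one group tend to be smaller in another, so the gap between the medians is no comparison of the groups.

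One interval chosen as lower in control islets went the other way. At chr7:149022421-149024143 (1722 bp), the small-litter mice had 69.4, 31.1, 39.6, 37.9 and 42.2 CPM at P21 and 34.2, 90.8, 40.0, 82.9 and 34.9 CPM at P180. P180 replicates 2 and 4 were high, as was P21 replicate 1, and the ages overlapped (log2 fold change 0.37 ± 0.31). The control values were 80.0 ± 42.5 CPM at P21 and 35 ± 4.34 at P180. The difference of the age change between litter groups was 1.52 ± 0.46 on the log2 scale in the fit of all 20 islet libraries. Its unadjusted p was 0.00401 and its adjusted p 0.99996 (edgeR). That fit includes the control libraries by which the interval was chosen, so its unadjusted p is not an independent test.

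No interval was called for a difference of the age change between litter groups. The interaction of age and litter size called 0 of 22207 intervals (0%, edgeR, lowest adjusted p 1.00), and 218 had an unadjusted p under 0.05 (0.982%). DESeq2 called 0 as well, with 236 at an unadjusted p under 0.05. The edgeR share of 0.982% is well under the threshold of 0.05 itself, for a reason that was not tested. An absence of calls does not show that the 2 litter groups changed alike. Of the 20 intervals named by p in small-litter islets, 1 had an interaction p under 0.05: Fall 5, at -0.97 ± 0.30 (unadjusted p = 0.00407, adjusted p 1.00). Among the larger decreases, chr16:38393488-38395586 (2098 bp) had 23.8 ± 6.76 and 14.3 ± 1.86 CPM in small-litter islets and 19.6 ± 1.31 and 21.8 ± 6.62 in control islets. Its interaction was -0.94 ± 0.29 (unadjusted p = 0.00393, adjusted p = 0.99996, edgeR). Fall 5 and this interval were chosen by their change in small-litter libraries that the interaction fit also uses. Their unadjusted p-values are therefore not independent tests.

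**Figure D3:**
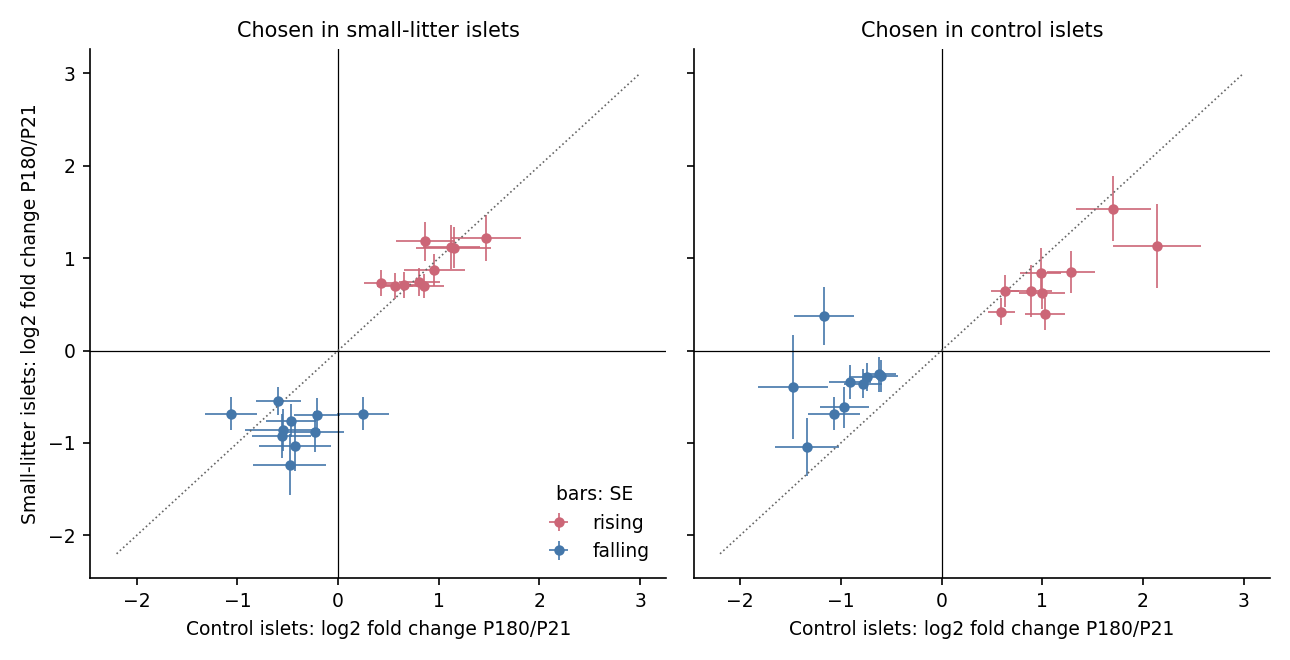
Log2 fold change with age in small-litter islets (vertical axis) against that in control islets (horizontal axis), with bars of 1 SE in each direction and a dotted line of equal change. The left panel shows the 20 intervals named by p in small-litter islets and the right panel the 19 tested intervals chosen in control islets. Red points are higher and blue points lower at P180 in the islets they were chosen in. In the left panel all red points lie to the right of 0 and 1 blue point, Fall 5, does as well, and in the right panel 1 blue point, chr7:149022421-149024143, lies above 0.

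Exocrine tissue served as a reference for methylation that is not of islets. Its contrast with control P21 islets, which uses no small-litter library, called 1805 of 22079 intervals higher in exocrine tissue (8.18%) and 3101 lower (14%). Of the 499 intervals higher at P180 in small-litter islets, 496 were tested for tissue, and 222 of them (44.8%) were called higher in exocrine tissue and 5 (1.01%) lower. Of the 581 lower intervals, 566 were tested, and 241 (42.6%) were called lower in exocrine tissue and 17 (3.00%) higher. Taken from the other list, the shared intervals were 12.9% of the 1725 exocrine-higher and 7.77% of the 3101 exocrine-lower intervals. These shares are not matched for length. Of the 3101 exocrine-lower intervals 949 were 61 to 236 bp long, as were 196 of the 581 lower ones. Whether islet preparations of the 2 ages held different amounts of exocrine tissue was not tested, and the table has no marker genes to measure it.

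All 10 of the named higher intervals, and all 12 that DESeq2 called, were called higher in exocrine tissue than in control P21 islets. Of all intervals tested for tissue, 8.18% were called higher. The 12 include the 10, so these counts are largely the same result, and they are not matched for length. The tissue contrast and the age change of control islets share the control P21 libraries, so the values from the 2 stand side by side and are not independent. The exocrine mean lay above the small-litter P180 mean at 9 of the 10. Rise 9 had 35.7 ± 5.25 CPM in exocrine tissue against 14.4 ± 2.89 in small-litter islets at P180 and 6.30 ± 2.23 at P21. Rise 4 had 162 ± 43.2 against 91.2 ± 14.6 and 49.9 ± 9.74. The exception was Rise 8, with 55.9 ± 8.44 against 58.3 ± 7.78 and 36.0 ± 4.20. Of the 10 lower intervals, 4 were called lower in exocrine tissue and 1, Fall 4, higher, against 14% and 8.18% of all intervals tested for tissue. Fall 10 was among the 4, with 13.0 ± 6.52 CPM in exocrine tissue, 29.8 ± 4.06 in small-litter islets at P180 and 43.8 ± 6.08 at P21. Fall 5 had 17.6 ± 4.80 in exocrine tissue, level with the 18.0 ± 3.18 of the P21 mice, and was not called for tissue.

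The age change also followed the length of an interval. In 10 classes of about equal size, the share of intervals with a log2 fold change above 0 was 16.6% in the shortest class (61 to 236 bp), reached 73.6% at 892 to 1162 bp and fell to 30.2% in the longest (2508 to 3000 bp). The median log2 fold changes in these classes were -0.34, 0.12 and -0.14. Control islets showed the same form at a smaller size, with -0.22, 0.06 and -0.03. Of the 581 lower intervals, 196 were in the shortest class and 92 in the longest, and of the 499 higher intervals 3 and 6 were.

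Single mice crossed between the ages in this trend. In the shortest class the mean log2(CPM + 0.5) was 3.40, 3.72, 3.13, 3.40 and 2.71 in the P21 mice and 3.52, 2.96, 2.63, 3.02 and 2.88 in the P180 mice. P180 replicate 1 lay among the P21 mice and P21 replicate 5 among the P180 mice. The difference of -0.27 had an exact permutation p of 0.270 (two-sided, 252 assignments, n = 5 each, adjusted p = 0.655). In the class of 892 to 1162 bp the difference was 0.14 (exact permutation p = 0.119, adjusted p = 0.595), and the ages overlapped in each of the 10 classes. The smallest p this design allows is 0.00794, and no class had an adjusted p under 0.595. With each library's length trend removed, the medians of the classes lay between -0.01 and 0.04, which follows from the removal itself. All 20 of the named intervals kept their direction and an unadjusted p under 0.05. Level moved with length. The fifth of intervals with the lowest levels (1.80 to 6.46 CPM, median length 1771 bp) had a median log2 fold change of -0.15, and the fifth with the highest (61.2 to 9163 CPM, median length 793 bp) had 0.10.

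**Figure D4:**
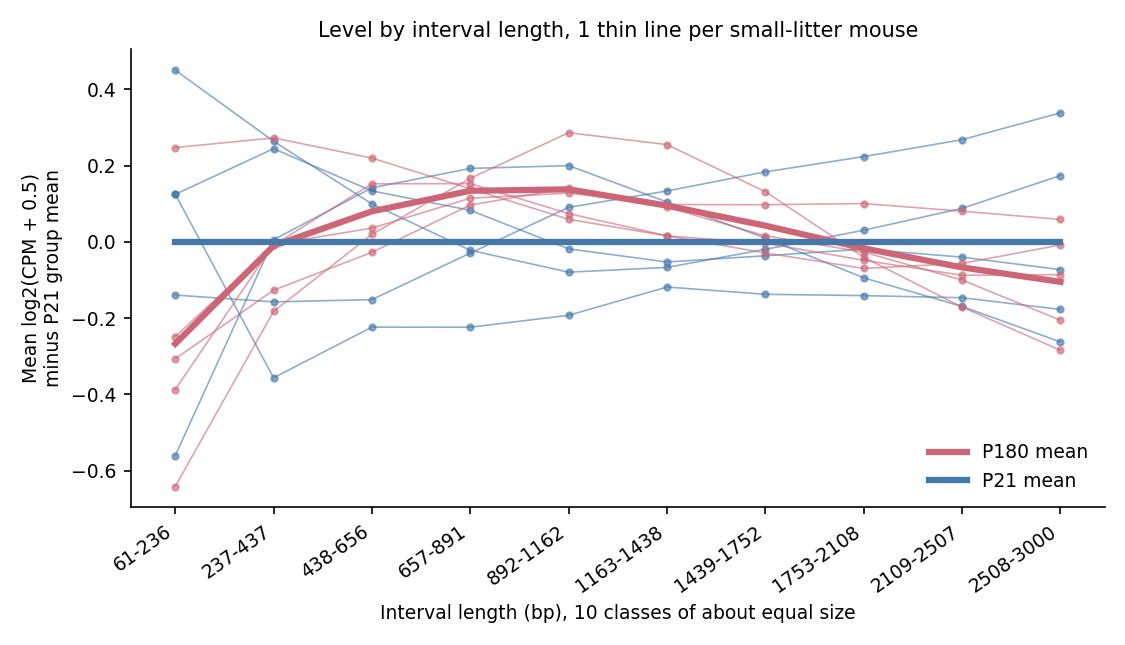
Mean log2(CPM + 0.5) in 10 classes of interval length (horizontal axis, bp), each minus the P21 group mean of its class. Thin lines are single mice and thick lines group means, blue for P21 and red for P180. The P180 mean runs from -0.27 in the shortest class through 0.14 to -0.11 in the longest, and the lines of single mice cross and overlap in every class.

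Length and tissue call moved with the age change separately. Within each of the 10 length classes, the intervals called higher in exocrine tissue had a higher median age change than those called lower, by 0.09 to 0.50 on the log2 scale. At 892 to 1162 bp, 291 exocrine-higher intervals had a median of 0.24 with 88.0% above 0, and 232 exocrine-lower intervals had -0.05 with 41.4% above 0. In the shortest class the 949 exocrine-lower intervals had a median of -0.46, while only 13 intervals were exocrine-higher. In the longest class the medians were -0.10 for 219 exocrine-higher and -0.24 for 54 exocrine-lower intervals.

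**Figure D5:**
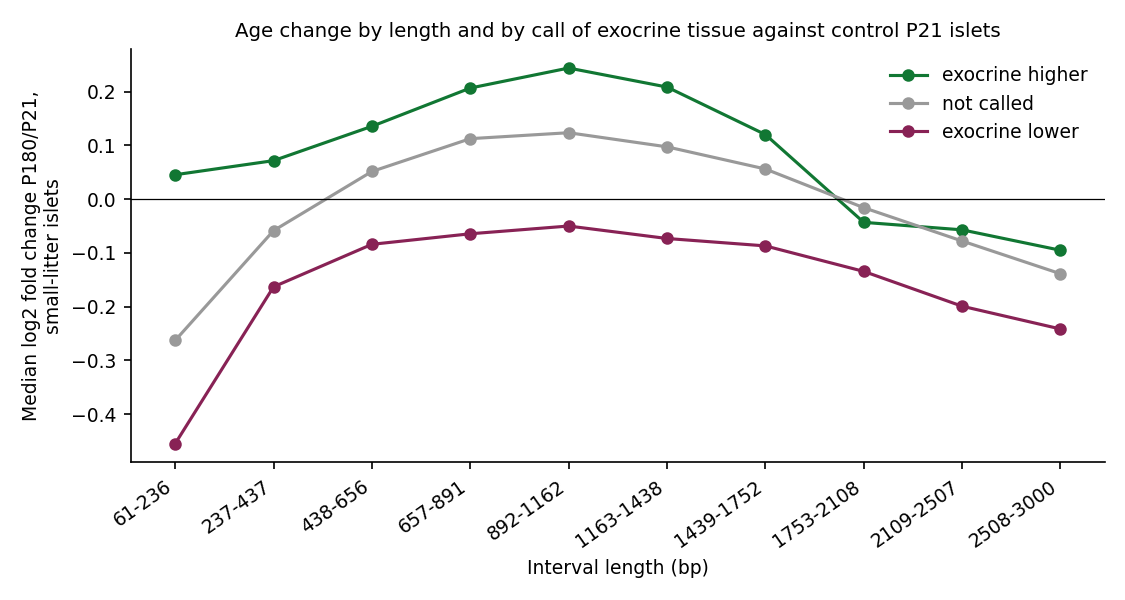
Median log2 fold change with age in small-litter islets (vertical axis) in 10 classes of interval length (horizontal axis, bp), for intervals called higher in exocrine tissue than in control P21 islets (green), lower (purple) or not called (grey). The green points lie above the purple points in all 10 classes, and all 3 lines are highest at 892 to 1162 bp.

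Adjoining intervals that share a site moved together more than neighbours that do not. Of 5835 tested pairs that share a site, 62.8% changed in the same direction, with a correlation of 0.38 across pairs, against 50.6% and 0.03 for 16199 neighbouring pairs that share none. Removing the length trend left 62.3% and 0.36. A pair that shares a site shares 1 of its end sites, and pairs are not independent replicates. No run of 3 or more adjoining intervals had an unadjusted p under 0.05 in the same direction, and 53 pairs did, 31 of them higher and 22 lower at P180. Intervals that adjoin a named one share an end site with an interval chosen for its change in the same mice, so they are not independent of it. The 6 tested intervals that adjoin a named higher interval were all higher at P180, by 0.13 to 0.83 on the log2 scale, and 2 had an unadjusted p under 0.05, against 2.26% of all tested intervals on that side. One was chr4:149312329-149313024, beside Rise 3, with 0.71 ± 0.24, the same change as Rise 3 at a lower level. The other was beside Rise 9, at 0.83 ± 0.36. Of the 5 that adjoin a named lower interval, 3 were lower, 1 of them with an unadjusted p under 0.05, against 2.63% of all tested intervals on that side.

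No chromosome stood out. The share of autosomal counts on each of the 19 differed between ages with exact permutation p of 0.0794 or more and adjusted p of 0.422 or more, and the ages overlapped on every chromosome. Chromosome 2 held 7.72% ± 0.109 of counts at P21 and 7.83% ± 0.0539 at P180. Chromosome 17 had the largest difference, 9.23% ± 0.795 and 8.67% ± 0.167, and P21 replicate 5 was high at 10.6%. A block of 6 adjoining intervals, chr17:39979252-39985224, chosen after its values were seen because it held the 6 highest levels of the table, carried 3.65% ± 0.826 of counts at P21 and 3.14% ± 0.132 at P180 (exact permutation p = 0.175, n = 5 each), with 5.04% in P21 replicate 5. Its intervals had log2 fold changes from -0.24 to -0.16.

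The median SD of log2 levels between small-litter mice was 0.389 at P21 and 0.318 at P180, and the SD was larger at P180 at 34.8% of intervals. The lowest values with 1 library left out were 0.327 at P21 (without replicate 1) and 0.274 at P180 (without replicate 3). The difference in spread between the ages was not tested. Control islets had 0.373 and 0.332. Per library, the total count, the share of intervals at 0, the share of counts in intervals of at most 300 bp (5.07% ± 1.32 at P21, 4.12% ± 0.868 at P180) and the share in the top 1% of intervals (13.1% ± 1.44, 12.9% ± 0.624) did not differ beyond the spread between mice (exact permutation test, adjusted p = 0.944 for each).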

How the data were processed

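Genomic DNA of 25 samples was profiled by MSA-seq from 500 ng of DNA each, and products were sheared to 200 to 500 bp and read as paired ends, per the labels' protocols. The authors deposited raw read counts per interval with no normalization, on build mm9. Per the submitters' processing notes, Bowtie 0.12.9, FastQC 0.10.1 and cutadapt were used. Not given in the sources used here: how reads were assigned to intervals, how PCR duplicates were treated and how the intervals were chosen. Reads amplified by PCR are not independent molecules. Positions are printed as in the table, whose count base (0 or 1) is not stated.

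Groups came from the labels. The members and lists were chosen with earlier results of these data known. In R 4.3.3, edgeR 4.0.16 was fitted to the 10 small-litter islet libraries (22498 intervals of all chromosomes kept by filterByExpr, TMM scaling, robust quasi-likelihood test), with Benjamini-Hochberg adjustment over the whole table and autosomal intervals reported. The biological coefficient of variation was 31.7%. Standard errors came from the model with its moderated variance. CPM used TMM over all 25 libraries and set the overlap of ages. Control age, tissue and interaction fits were made the same way on 10, 10 and 20 libraries. Values per library were compared by exact permutation. The models were tested on simulated data.

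Named intervals followed a written rule: in each direction 10 with the smallest p and no overlap of the ages, 5 with the largest change at a mean of at least 50 counts, the 5 most abundant (both with an unadjusted p under 0.05 and no overlap), 10 chosen in control islets, the 5 smallest standard errors, and runs of 3 or more. Intervals called by DESeq2 1.42.0 and the block on chromosome 17 were named after their values were seen. Alternatives were other scalings and filters, DESeq2, limma 3.58.1 voom, all islet libraries together, the replicate number as a block, autosomes alone, a length trend removed (lowess, span 0.3), other classes and limits, and each library left out. Leaving out P21 replicate 1 with P180 replicate 2, the DESeq2 runs with libraries left out, and the length and block fits for intervals chosen in control islets were added after seeing the data. No mm9 gene annotation or genome sequence was used here, so no gene names or sequences are given. Figures were drawn with matplotlib 3.10.9.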

Additional observations from a re-analysis of the deposited data

Results flagged for a closer look

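In 184 sets of 5 values (1 library summary, length class, chromosome share or named interval in the 5 mice of 1 age), 12 had a highest or lowest mouse whose gap to its neighbour exceeded 0.710 of the whole range, Dixon's critical value for 5. Chance alone marks about 1 in 20 such sets. P21 replicate 1 was marked 5 times: 1.90% of its autosomal intervals were at 0 counts, and again 1.90% after all libraries were thinned to 1 depth, chromosome 7 held 7.45% of its counts against 7.23% to 7.26% in the other P21 mice, chr5:83295872-83296111 had 40.1 CPM against 15.1 to 20.7, and chr7:149022421-149024143 had 69.4 CPM against 31.1 to 42.2. P21 replicate 3 was marked 3 times, with 11.2 CPM at chr15:74580760-74583134 (the others 15.3 to 16.8), 43.3 CPM at chr2:158596878-158597778 (33.1 to 35.8) and 34.1 CPM at chr7:122655209-122656210 (21.5 to 23.6). In P180 replicate 2, 0.879% of intervals were at 0 counts, 0.955% after thinning. P180 replicate 5 had a mean log2(CPM + 0.5) of 3.80 in the length class of 1753 to 2108 bp (3.64 to 3.68 in the others), and P180 replicate 3 had 208 CPM at chr6:144851205-144851982 (192 to 196).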

How the results depend on the processing

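Depth, with a median of 96.7 counts per tested interval, and the spread between mice limit what could be called, and the 247 untested intervals had mean counts of at most 32. Against 0 calls in either direction by edgeR, DESeq2 called 12 higher. The unadjusted counts of higher intervals were 307 with total-count scaling, 325 with upper-quartile scaling and 907 with voom, and with each library left out they ran from 341 to 876 (higher) and from 341 to 1147 (lower). DESeq2 calls ran from 0 to 15 higher and from 0 to 1 lower with each library left out, and 6 were called higher without P21 replicate 1 and P180 replicate 2. The unadjusted count for the interaction of age and litter size, 218 as fitted, was 109 at a mean of at least 50 counts and 144 to 475 with each library left out (475 without control P21 replicate 2). The other alternatives left these counts within 1.5 times.

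The replicate numbers of the labels did not pair the mice: same-numbered mice had correlations of their deviations from -0.357 to 0.0371, and 0 of 5 P21 mice correlated best with their own number. With the replicate block edgeR called 0 higher and 0 lower, with 373 and 517 at an unadjusted p under 0.05, and 0 for the interaction. The block changed no other call.

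Directions reversed at a few values. At chr14:37925284-37926354 the log2 fold change was -0.00158 with the length trend removed. At chr6:124998917-124999694 it was -0.0272 with total-count and -0.0205 with upper-quartile scaling, -0.000687 at a mean of at least 50 counts, -0.0638 with the length trend removed, and -0.00184 to 0.0496 with libraries left out. The difference of the length class of 1439 to 1752 bp was -0.00998 with total-count scaling. With each library left out, the class of 237 to 437 bp ran from -0.0995 to 0.0556, that of 1753 to 2108 bp from -0.0522 to 0.0390 and that of 2109 to 2507 bp from -0.109 to 3.47e-05. Differences in the share of intervals at 0 ran from -0.353 to 0.189 percentage points (-0.326 to 0.215 after thinning), in total count from -1453630 to 409166, and in the share of the top 1% of intervals from -0.556 to 0.332 points. Without the top 1% of intervals, the differences of chromosomes 4, 5, 6, 9 and 10 were -0.0494, -0.0256, -0.00253, -0.0160 and -0.0116 points. With each library left out, chromosome 1 ran from -0.00291 to 0.0724, chromosome 4 from -0.0387 to 0.0541, chromosome 6 from -0.00311 to 0.0471, chromosome 9 from -0.00693 to 0.0367, chromosome 10 from -0.0162 to 0.0287 and chromosome 11 from -0.0760 to 0.0193. The cause of these changes was not tested.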
